A study of Mus musculus with 6 samples.

Results

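The genes described here are 10 vascular genes chosen by gene symbol, with no threshold on a value but with earlier results of these data known: the endothelial surface markers Pecam1, Cdh5, Emcn, Plvap and Vwf, the growth factor receptors Kdr, Flt1, Tek and Tie1, and the ligand gene Vegfa. They are 10 of the 54093 genes with complete values, and each symbol had a single entry. RNA was read from right atrium (RA) of wild-type C57BL/6 mice at postnatal day 21 (P21), in 3 sham and 3 volume overload (VO) libraries. At P7 pups of either sex had been randomized to sham surgery or to an aortocaval fistula, in which a needle puncture joins the abdominal aorta to the inferior vena cava and returns more blood to the heart. No transgene, deletion or drug distinguishes the groups, the sequenced tissue was whole atrial myocardium rather than sorted endothelium, and the labels do not say how many animals gave each library. The p-values therefore measure the spread between these libraries, and in such bulk tissue a lower share of endothelial cells and less RNA per endothelial cell cannot be told apart.

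Endothelial cells line every vessel and the cavities of the heart. VEGF-A, the product of Vegfa, is secreted by cardiomyocytes and other cells and acts on endothelium through 2 receptor tyrosine kinases. VEGFR-2 (Kdr) carries most of the growth and permeability signal, while VEGFR-1 (Flt1) binds the ligand tightly and signals weakly, so that it can act as a decoy. The angiopoietins act through a second receptor, TIE2 (Tek), with TIE1 (Tie1) as its partner without a well-defined ligand of its own. PECAM-1 and VE-cadherin (Cdh5) hold neighbouring endothelial cells together. Endomucin (Emcn) is a sialomucin of the luminal coat of capillaries and veins, PLVAP forms the diaphragms of caveolae and fenestrae, and von Willebrand factor (Vwf) is stored in endothelial granules and tethers platelets.

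Promoter sequences are shown for the members whose libraries separated the groups, Tie1 and Emcn, and for Tek, the receptor partner of Tie1 whose libraries did not; Cdh5 had no entry. RefSeq promoters (GRCm38.p6, from 250 bases before the transcription start to 50 after it, on the strand of the gene) matched 6 of the 10 genes, namely Kdr, Flt1, Tek, Tie1, Emcn and Vegfa. Capitals mark GGAA and its reverse complement TTCC, the core bound by ETS factors, a family that includes the endothelial regulators Erg and Fli1.
Tie1, chr4:118489800-118490099, minus strand: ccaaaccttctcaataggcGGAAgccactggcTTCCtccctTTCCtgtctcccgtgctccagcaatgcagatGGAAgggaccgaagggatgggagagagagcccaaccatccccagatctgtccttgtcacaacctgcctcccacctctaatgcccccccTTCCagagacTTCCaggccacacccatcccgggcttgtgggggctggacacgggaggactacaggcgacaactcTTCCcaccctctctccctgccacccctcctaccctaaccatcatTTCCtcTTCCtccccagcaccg
Tek, chr4:94739039-94739338, plus strand: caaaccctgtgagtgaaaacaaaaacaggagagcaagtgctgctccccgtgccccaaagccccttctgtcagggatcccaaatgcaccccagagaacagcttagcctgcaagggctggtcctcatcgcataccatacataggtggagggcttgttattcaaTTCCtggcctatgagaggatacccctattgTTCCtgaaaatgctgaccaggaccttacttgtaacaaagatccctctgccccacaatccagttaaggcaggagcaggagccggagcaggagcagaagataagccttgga
Emcn, chr3:137340828-137341127, plus strand: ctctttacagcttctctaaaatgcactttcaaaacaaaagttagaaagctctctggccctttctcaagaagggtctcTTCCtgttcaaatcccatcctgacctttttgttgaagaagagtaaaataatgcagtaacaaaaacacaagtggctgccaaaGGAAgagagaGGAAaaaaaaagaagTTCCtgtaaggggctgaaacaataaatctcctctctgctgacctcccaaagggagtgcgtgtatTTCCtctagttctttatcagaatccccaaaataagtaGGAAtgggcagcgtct
The core was found 9 times in the Tie1 window, 6 times in that of Emcn and 2 times in that of Tek. Of the matched windows not shown, Kdr held it 5 times, Flt1 4 times and the 2 Vegfa windows 6 and 3 times. Kdr, Flt1 and Vegfa overlapped between the groups in the main fit. A window of this length held the core at least 1 time in 96.0% of the 32851 promoters, with a median of 3 matches. At least 9 matches were held by 1.59% of promoters, at least 6 by 15.7% and at least 2 by 84.6%. The longer form AGGAAG (reverse complement CTTCCT), which contains the core, was found 2 times each in Tie1, Emcn and Flt1. It was found at least 1 time in 35.4% of all promoters. The letters GGGCGG (reverse complement CCGCCC), the box bound by SP1, were found 3 times in Flt1 and 2 times in Kdr. The 2 Vegfa windows held them 2 times and 1 time, and 35.7% of all promoters held them at least 1 time. TATAAA, read on both strands, was present in Flt1 alone among the matched windows and in 13.6% of all promoters. These matches describe the letters of the windows only.

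All 10 genes were well above the filter of a mean of 1 FPKM, that is fragments scaled to gene length and to a size set per library. In the deposited values that size was not always the total of fragments on genes. The libraries held 15963082 to 17237903 fragments on genes. Each member rested on 839 fragments or more in every library, the fewest being for Plvap in VO 1, where counting error alone is 3.45%. Pecam1 had the highest mean level, with 64.0 ± 5.43 FPKM in sham (SD, n = 3), and lay at percentile 95.3 of the 12627 tested genes. Flt1 had the lowest, with 8.76 ± 1.05 FPKM in sham (SD, n = 3), at percentile 63.0. Between them the sham means ran in the order Cdh5, Vegfa, Plvap, Tek, Tie1, Emcn, Vwf and Kdr. Neighbours in this order whose sham ranges overlapped were Cdh5 with Vegfa, Vegfa with Plvap, Plvap with Tek, Tie1 with Emcn, and Vwf with Kdr. Over all 6 libraries the range of a gene ran from 1.15-fold for Tie1 to 1.92-fold for Vwf. None of the 9 endothelial genes was absent from any library.

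The comparison of VO with sham asked whether overload of the atrium altered its vascular transcripts. It was made with limma on log2(FPKM + 0.1) over all tested genes, testing both directions, with Benjamini-Hochberg adjustment. None of the 10 members passed: 0 had an adjusted p under 0.05, where 0.00792% of all tested genes did. At an unadjusted p under 0.05 there were 3 of 10 members, against 12.0% of all tested genes, and voom on the recovered fragments also gave 3. These were Cdh5, with the higher mean in VO, and Emcn and Plvap, with the lower. The count of 3 became 0 without sham 1, sham 2 or VO 1, 1 without sham 3 (Plvap), and 1 without VO 3, where the gene was Vwf and none of the 3 was left. In 3 of 10 members the ranges of VO and sham were separate, against 21.2% of all tested genes. Of these, Cdh5 and Tie1 were higher in VO, where 8.25% of all tested genes had VO wholly above sham, and Emcn was lower, where 12.9% had VO wholly below. The median log2 fold change of the members was 0.07, beside -0.01 for all tested genes, and 0.20 beside 0.13 with TPM. With 10 genes, these counts describe the members and do not set them apart from other genes.

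**Figure D1:**
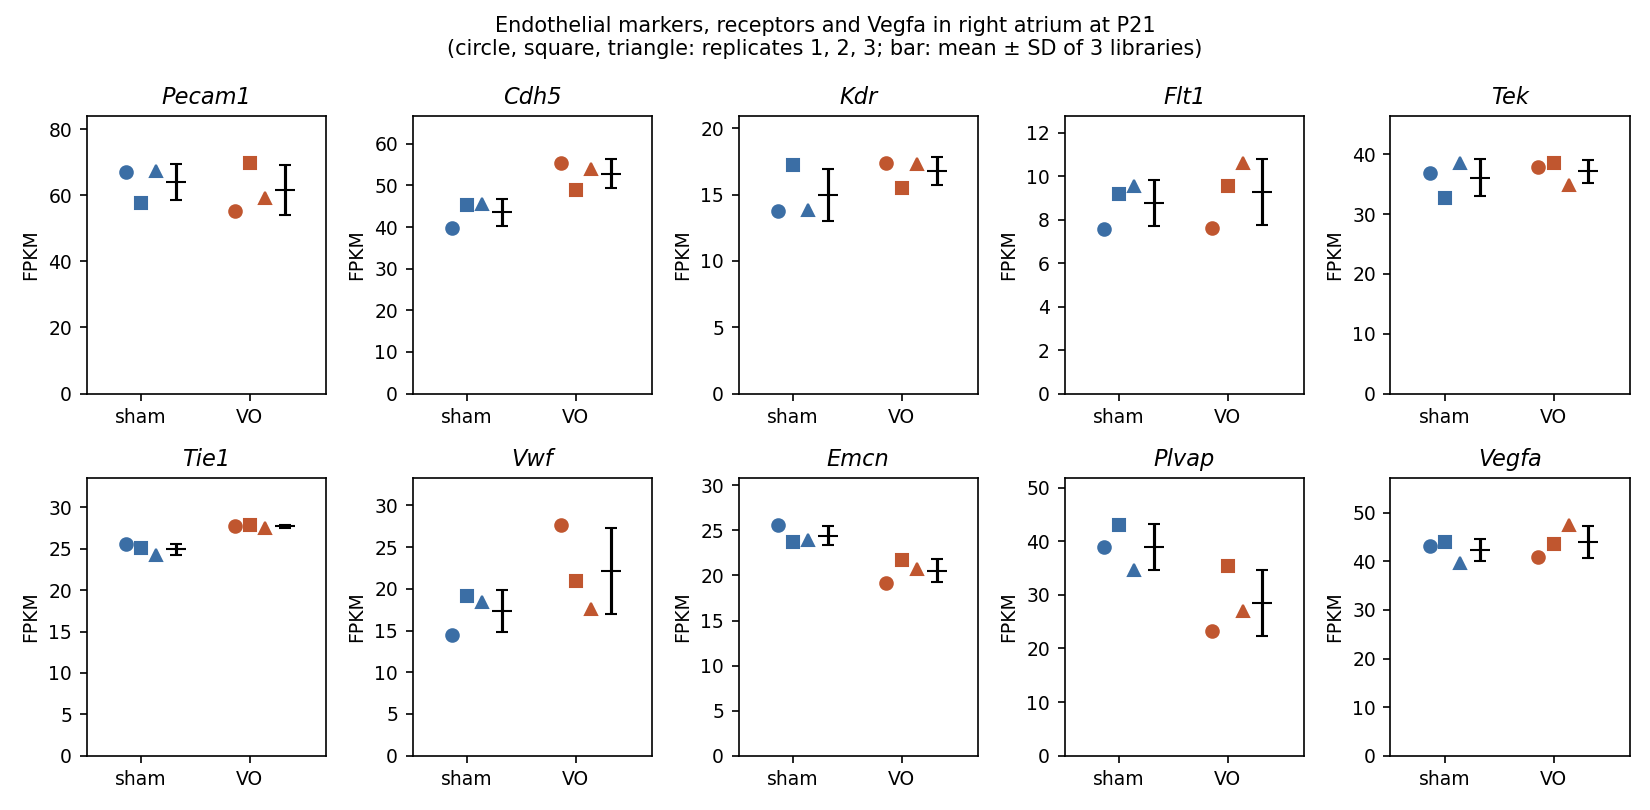
FPKM of each of the 10 genes in each library, with sham in blue, VO in orange, replicates 1 to 3 as circle, square and triangle, and the mean ± SD of 3 libraries as a black bar; each vertical axis starts at 0. VO lies wholly above sham for Cdh5 and Tie1 and wholly below it for Emcn, while the other 7 genes overlap.

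Cdh5 and Pecam1 are the junction proteins of the set. Cdh5 (ENSMUSG00000031871, chromosome 8, 104101625 to 104144511, plus strand) was read at 39.9, 45.2 and 45.6 FPKM in sham 1 to 3 and at 55.5, 48.9 and 54.0 FPKM in VO 1 to 3. Every VO library lay above every sham library, and the VO mean was 1.21 times the sham mean. Its log2 fold change was 0.28 (SE 0.11, adjusted p = 0.410 by limma). Pecam1 (ENSMUSG00000020717, chromosome 11, 106654217 to 106750628, minus strand) was read at 67.1, 57.8 and 67.2 FPKM in sham and at 55.3, 69.9 and 59.2 FPKM in VO. The groups overlapped widely, and the lowest and the highest value were both VO libraries. Its log2 fold change was -0.06, with a 95% interval from -0.37 to 0.24 (limma's adjusted p = 0.833). The sign turned positive with TPM (0.08), quantile normalization (0.09) and scaling by fragment totals (0.03), and without VO 1 (0.0085), so no direction is given for Pecam1.

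The luminal and caveolar markers Emcn and Plvap had lower means in VO. Emcn (ENSMUSG00000054690, chromosome 3, 137341067 to 137432185, plus strand) was read at 25.6, 23.7 and 23.9 FPKM in sham and at 19.2, 21.7 and 20.7 FPKM in VO. All VO libraries lay below all sham libraries, with a VO mean 0.841 times the sham mean and a log2 fold change of -0.25 (SE 0.10, adjusted p = 0.410 by limma). Plvap (ENSMUSG00000034845, chromosome 8, 71497765 to 71511752, minus strand) was read at 38.9, 43.1 and 34.6 FPKM in sham and at 23.3, 35.3 and 27.0 FPKM in VO. VO 2 lay just above sham 3, and the other VO libraries lay below all of sham. The log2 fold change of Plvap was the largest in size of the 10 genes, at -0.46 (SE 0.17, adjusted p = 0.410 by limma), with a 95% interval from -0.87 to -0.05. It was -0.63 without VO 2 and -0.33 without VO 1. With TPM, where the median of all tested genes moved to 0.13, the log2 fold changes were -0.11 for Emcn and -0.32 for Plvap, and neither kept an unadjusted p under 0.05. Both stayed negative in the 12 alternatives that can move a fold change.

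Among the VO libraries, Cdh5 and the pair of Emcn and Plvap had opposite orders. VO 1 had the highest Cdh5 and the lowest Emcn and Plvap, VO 2 the lowest Cdh5 and the highest Emcn and Plvap, and VO 3 lay between. The marker lists of leukocytes, red cells, platelets and cardiomyocytes followed the same order. The summed FPKM of 10 leukocyte markers was 639 in VO 1, 217 in VO 3 and 173 in VO 2, beside 149 to 172 in sham. The summed FPKM of 13 cardiomyocyte markers was 10520 in VO 1, 15187 in VO 3 and 19279 in VO 2, beside 22171 to 28962 in sham. For 5 red cell markers it was 8580 in VO 1, 1034.5 in VO 3 and 695 in VO 2, beside 1198 to 6972 in sham. For 8 platelet markers it was 76.2 in VO 1, 33.1 in VO 3 and 29.8 in VO 2, beside 25.5 to 125 in sham. The highest sham value of both lists was that of sham 1. The part of these cells in the values of Cdh5, Emcn and Plvap was not tested.

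Vwf was the most variable member. Vwf (ENSMUSG00000001930, chromosome 6, 125546774 to 125686679, plus strand) was read at 14.4, 19.1 and 18.5 FPKM in sham and at 27.7, 21 and 17.6 FPKM in VO. VO 1 stood above all other libraries, VO 3 lay within the sham range, and the VO values had a coefficient of variation of 23.2%. The log2 fold change was 0.34 (SE 0.19, adjusted p = 0.469 by limma). Leaving out VO 1 gave 0.16, and leaving out VO 3 gave 0.49. Megakaryocytes and platelets also carry Vwf and Pecam1 transcripts. The summed FPKM of 8 platelet markers was 125 in sham 1 and 76.2 in VO 1 and 25.5 to 35.7 in the other 4 libraries. Of these Pf4, a platelet chemokine, was at 50.9 FPKM in sham 1, 35.7 in VO 1 and 18.1 to 27.6 in the others, and Gp1bb alone was at 0 in any library. Vwf was highest in VO 1 and lowest in sham 1, and the part of platelets in its values was not tested.

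The VEGF receptors overlapped between the groups. Kdr (ENSMUSG00000062960, chromosome 5, 75932827 to 75978458, minus strand) was read at 13.8, 17.2 and 13.9 FPKM in sham and at 17.4, 15.5 and 17.3 FPKM in VO. Sham 2 lay just below VO 1 and VO 3 and above VO 2, while sham 1 and sham 3 lay below all of VO. The log2 fold change of Kdr was 0.17, with a 95% interval from -0.12 to 0.46 (limma's adjusted p = 0.546). It was 0.11 without sham 1 or sham 3 and 0.27 without sham 2. Flt1 (ENSMUSG00000029648, chromosome 5, 147561604 to 147726011, minus strand) was read at 7.57, 9.16 and 9.56 FPKM in sham and at 7.60, 9.56 and 10.6 FPKM in VO. Each VO library but VO 3 had a sham library at nearly the same level. Its log2 fold change of 0.07 had a 95% interval from -0.30 to 0.44 (limma's adjusted p = 0.840) and became -0.03 without sham 1 or without VO 3. The counts are per gene, so full-length and soluble forms of Flt1 were not separated.

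The ligand gene Vegfa (ENSMUSG00000023951, chromosome 17, 46016993 to 46032369, minus strand) was read at 43.1, 44.0 and 39.7 FPKM in sham and at 40.9, 43.6 and 47.6 FPKM in VO. VO 3 was the highest library and the others were interleaved. The log2 fold change was 0.06, with a 95% interval from -0.19 to 0.31 (limma's adjusted p = 0.810), and it was 5.9e-04 without VO 3, 0.01 without sham 3 and 0.11 without VO 1. On 3 other scales, TPM, fragment totals and quantiles, the VO libraries of Vegfa lay wholly above sham, with log2 fold changes up to 0.20 and no adjusted p under 0.419 from limma. The Vegfa gene has 13 annotated transcripts, 8 of them protein coding, and the values do not separate them.

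The angiopoietin receptors differed in how they separated the groups. Tie1 (ENSMUSG00000033191, chromosome 4, 118471191 to 118490061, minus strand) was read at 25.6, 25.0 and 24.2 FPKM in sham and at 27.7, 27.9 and 27.6 FPKM in VO. Both groups were tight, with coefficients of variation of 2.79% and 0.665%, and all of VO lay above all of sham. The log2 fold change of Tie1 was 0.15 (SE 0.09, adjusted p = 0.473 by limma), a 1.11-fold higher mean. limma draws each gene's variance toward that of genes at a like level, and the 95% interval, from -0.06 to 0.36, held 0. Tek (ENSMUSG00000006386, chromosome 4, 94739289 to 94874976, plus strand) was read at 36.9, 32.6 and 38.6 FPKM in sham and at 38.0, 38.6 and 34.9 FPKM in VO. The groups overlapped over nearly their whole range, with a log2 fold change of 0.04 and a 95% interval from -0.21 to 0.30 (limma's adjusted p = 0.863), and -0.03 without sham 2.

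**Figure D2:**
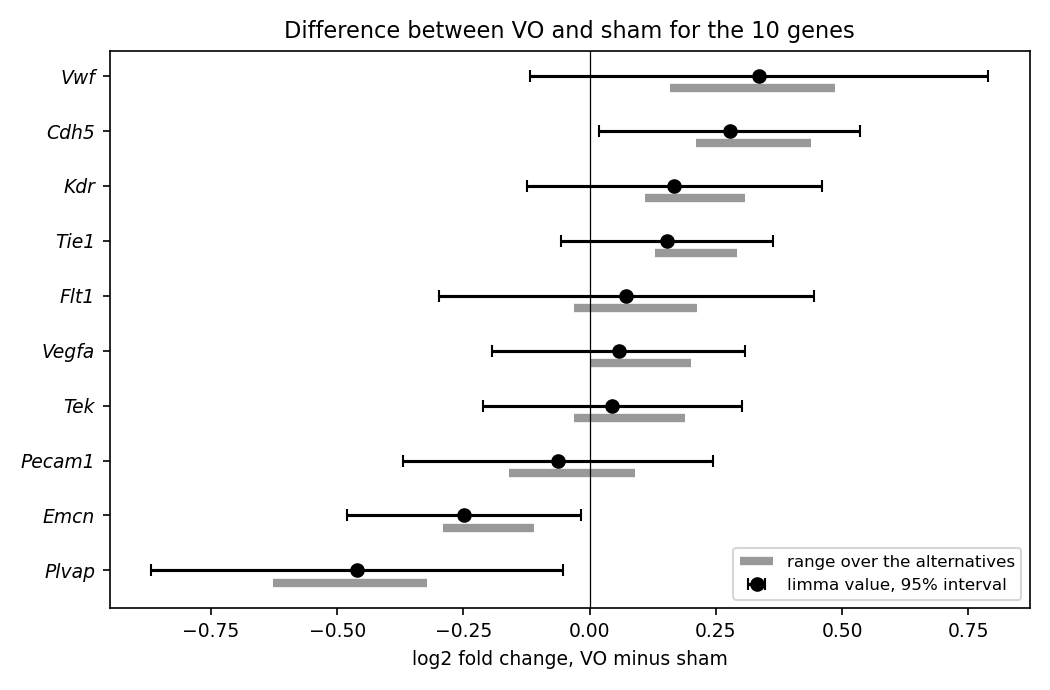
Log2 fold change of VO minus sham for each of the 10 genes (horizontal axis), with the limma value and its 95% interval as black point and bars and the range over the alternative analyses as a grey bar. The intervals of Cdh5, Emcn and Plvap leave out 0 before adjustment, and the grey bars of Pecam1, Flt1 and Tek cross it.

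Ratios of 2 genes within a library do not depend on the scaling between libraries, and 7 of them were compared with an exact two-sided permutation test over the 6 libraries, whose smallest p is 0.1. Plvap to Pecam1 was 0.579, 0.746 and 0.514 in sham and 0.421, 0.505 and 0.456 in VO. All 3 VO ratios lay below all sham ratios, with a log2 difference of -0.40 (exact permutation p = 0.1, adjusted p = 0.35 over the 7 ratios), which was -0.25 without sham 2. Emcn to Pecam1 was 0.382, 0.410 and 0.355 in sham and 0.347, 0.310 and 0.350 in VO. It was also lower in 3 of 3 VO libraries, with a log2 difference of -0.19 (exact permutation p = 0.1, adjusted p = 0.35). In both ratios sham 3 was nearly level with the highest VO library. It was at 0.514 beside 0.505 in VO 2 for Plvap, and at 0.355 beside 0.350 in VO 3 for Emcn. Cdh5 to Pecam1 was 0.594, 0.783 and 0.679 in sham and 1.00, 0.700 and 0.912 in VO. VO 2 fell within the sham range, and the log2 difference was 0.34 (exact permutation p = 0.2, adjusted p = 0.467).

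The receptor and ligand ratios overlapped between groups. Flt1 to Kdr, the ratio of decoy to signalling receptor, was 0.590 ± 0.0870 in sham and 0.555 ± 0.103 in VO (SD, n = 3 each; exact permutation p = 0.7). Tie1 to Tek was 0.696 ± 0.0703 in sham and 0.748 ± 0.0359 in VO (SD, n = 3 each; exact permutation p = 0.4). Vegfa to Kdr was 2.85 ± 0.288 in sham and 2.64 ± 0.249 in VO (SD, n = 3 each; exact permutation p = 0.4). Vwf to Pecam1 was 0.273 ± 0.0581 in sham and 0.366 ± 0.116 in VO (SD, n = 3 each; exact permutation p = 0.4), with VO 1 at 0.501. Without VO 1 the log2 difference of Vwf to Pecam1 moved from 0.40 to 0.15. With a library left out, the log2 difference of Tie1 to Tek ran from 0.04 to 0.18 and that of Vegfa to Kdr from -0.19 to -0.03. None of the 7 ratios can pass a threshold of 0.05 with 3 libraries a group.

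**Figure D3:**
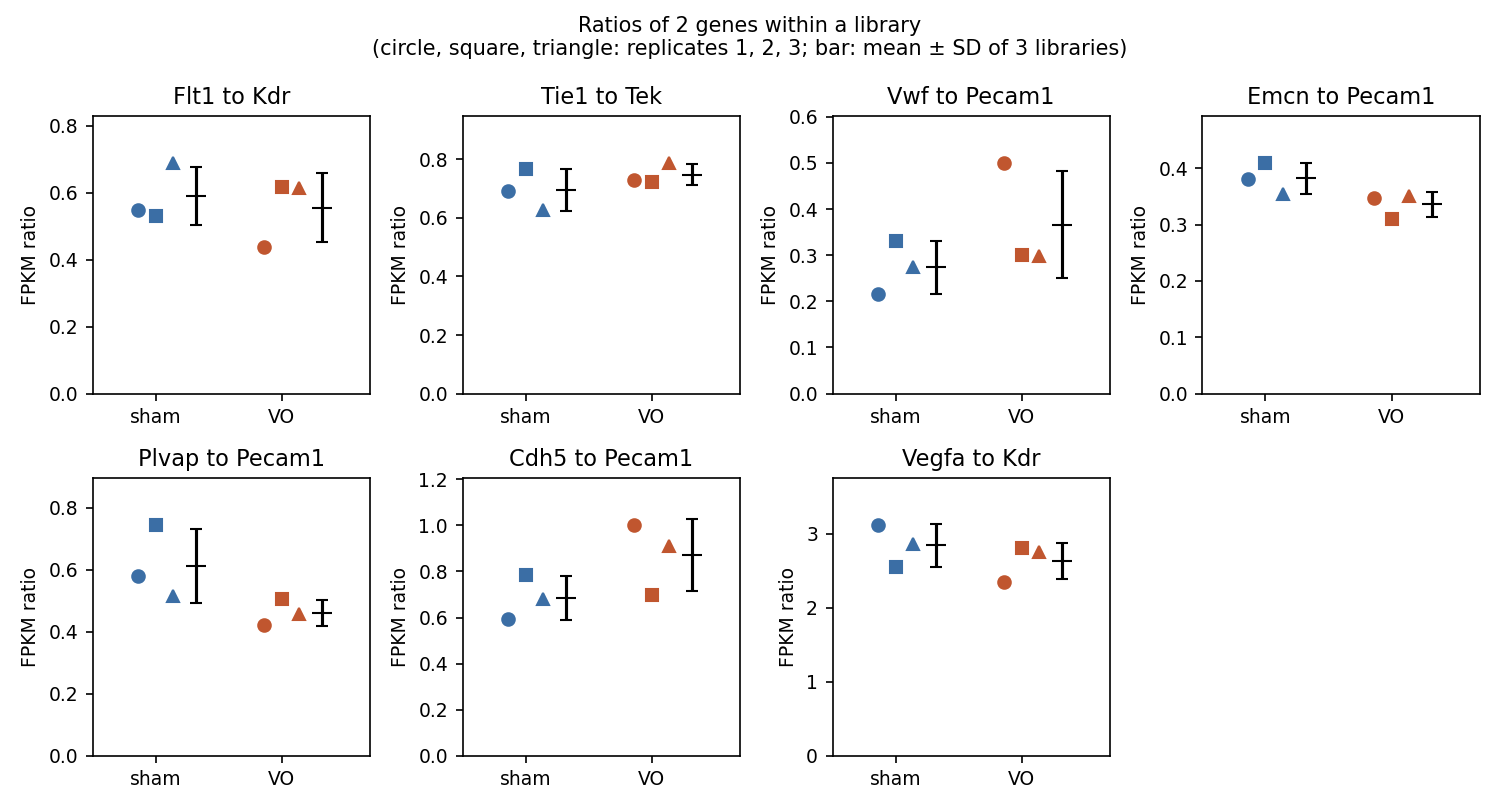
Ratios of FPKM of 2 genes in each library (vertical axes, no unit, starting at 0), with sham in blue, VO in orange, replicates 1 to 3 as circle, square and triangle, and mean ± SD of 3 libraries as a black bar. Emcn to Pecam1 and Plvap to Pecam1 are lower in every VO library than in every sham library, and the other 5 ratios overlap.

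Other endothelial genes were read from a list of 25, all of which passed the filter. Of these 0 had an adjusted p under 0.05 with limma and 3 an unadjusted p under 0.05, a share level with the 12.0% of all tested genes. The median log2 fold change was 0.02, and ran from 0.0017 without sham 2 to 0.16 with TPM. Aplnr, the apelin receptor of venous and sprouting endothelium, was read at 20.1, 16.1 and 17.2 FPKM in sham and at 39.2, 20.2 and 27.0 FPKM in VO, a log2 fold change of 0.64 (limma's adjusted p = 0.410). Its lowest VO library, VO 2, was nearly level with sham 1. Myct1 was read at 8.50, 6.73 and 7.49 FPKM in sham and at 12.9, 8.62 and 10.5 FPKM in VO, a log2 fold change of 0.48 (limma's adjusted p = 0.406). Erg, an ETS factor of endothelium, was read at 10.98, 10.4 and 11.1 FPKM in sham and at 9.02, 9.10 and 8.95 FPKM in VO, a log2 fold change of -0.26 (limma's adjusted p = 0.406). In Aplnr, Myct1 and Erg no VO library overlapped with sham, and VO 1 was the highest library for Aplnr and Myct1. Of the 25 genes 5 had no overlap, a share near the 21.2% of all tested genes. The list genes of highest level, Eng, S1pr1 and Sox18, overlapped between groups, with 205 ± 18.2, 50.3 ± 3.70 and 39.3 ± 2.05 FPKM in sham (SD, n = 3 each).

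In the VEGF family, 6 of 7 genes in the table passed the filter and none had an unadjusted p under 0.05. Vegfb, a ligand of VEGFR-1 abundant in heart muscle, was read at 114.9, 108.5 and 106.8 FPKM in sham and at 64.9, 104.5 and 90.1 FPKM in VO. All of VO lay below all of sham, with a log2 fold change of -0.37 (limma's adjusted p = 0.430). Of the 6 tested genes 1 had no overlap, against 21.2% of all tested genes. Nrp1, a VEGF co-receptor, averaged 14.1 ± 1.63 FPKM in sham against 14.8 ± 1.47 in VO (SD, n = 3 each). The lymphatic ligands Vegfc and Vegfd had sham means of 3.35 and 2.05 FPKM, and placental growth factor, Pgf, fell under the filter.

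The angiopoietin list had 4 of 5 genes past the filter. In 2 of these 4 the groups did not overlap, against 21.2% of all tested genes, and so few genes are described singly. Angpt1, the activating ligand of TIE2, was read at 48.5, 59.4 and 57.5 FPKM in sham and at 84.6, 60.9 and 46.8 FPKM in VO, with VO 1 highest and VO 3 lowest of all. Angpt2, the context-dependent antagonist, averaged 5.72 ± 1.29 FPKM in sham against 4.97 ± 0.656 in VO (SD, n = 3 each). Foxo1, a transcription factor restrained by TIE2 signalling through AKT, was read at 6.86, 7.89 and 7.45 FPKM in sham and at 8.89, 9.11 and 10.3 FPKM in VO. Its VO libraries lay wholly above sham, with a log2 fold change of 0.35 (limma's adjusted p = 0.404). Ptprb, the phosphatase VE-PTP that dephosphorylates TIE2, was read at 9.67, 11.7 and 11.9 FPKM in sham and at 12.7, 12.2 and 14.04 FPKM in VO, also without overlap, at a log2 fold change of 0.23 (limma's adjusted p = 0.453).

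Among 28 tested genes of VEGF signalling, 1 was higher and 3 were lower in VO at an unadjusted p under 0.05, and 0 passed adjustment with limma. These 4 of 28 lie near the 12.0% of all tested genes, and the values that follow describe single genes only. Plcg2 had the higher mean, at a log2 fold change of 0.65, and its VO values were 3.98 FPKM in VO 1 and 2.57 and 2.53 in VO 2 and VO 3, beside 1.68 to 2.07 in sham. Plcg2 is also a gene of B cells and myeloid cells, so the leukocyte values of VO 1 stand beside it and their part was not tested. Hspb1, the small heat shock protein phosphorylated downstream of p38, was read at 204, 193 and 175 FPKM in sham and at 102, 126 and 164 in VO, a log2 fold change of -0.57. Mapkapk2, the kinase of Hspb1, and Rcan1, a calcineurin-feedback gene, had log2 fold changes of -0.32 and -0.28. Hspb1, Mapkapk2 and Rcan1 did not overlap between groups, each had a limma adjusted p of 0.404 to 0.408, and Hspb1 is also abundant in cardiomyocytes. Of the 28 genes 7 had no overlap, a share near the 21.2% of all tested genes. Cdc42, a list gene of high level, averaged 97.5 ± 4.31 FPKM in sham against 99.5 ± 10.3 in VO (SD, n = 3 each).

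Lists of vessel type were also read. The counts of 1 of 13 and 1 of 10 genes that follow lie below the 12.0% of all tested genes at an unadjusted p under 0.05. Jag1 and Tcf15 are therefore described as single genes only. Among 13 Notch and ephrin genes 1 had an unadjusted p under 0.05, Jag1, a Notch ligand, at 3.10, 4.35 and 4.43 FPKM in sham and 6.62, 5.72 and 4.89 FPKM in VO (log2 fold change 0.53, limma's adjusted p = 0.404). Among 10 capillary genes 1 did, Tcf15, a transcription factor of heart capillaries, at 11.9, 9.23 and 6.33 FPKM in sham and 4.84, 3.07 and 6.45 FPKM in VO (log2 fold change -0.94, limma's adjusted p = 0.404). VO 3 held fat cell transcripts, with 383 FPKM summed over 6 adipocyte markers and at most 1.06 in any other library, and VO 3 was also the highest library for the fatty acid carrier Cd36, at 288 FPKM. The 10 arterial genes, 8 vein and endocardium genes and 12 adhesion genes gave 0 genes at an unadjusted p under 0.05, with medians of -0.10, -0.06 and 0.03. Of the 8 vein and endocardium genes 4 had higher and 4 lower means in VO. Npr3, a gene of endocardium, averaged 68.5 ± 7.12 FPKM in sham against 55.5 ± 8.30 in VO (SD, n = 3 each). Cytl1, another, was at 9.19 FPKM in VO 1 beside 30.3 to 47.9 in the other libraries. Nfatc1, also of endocardium, went the other way, with 4.47 ± 1.14 FPKM in sham against 6.09 ± 1.17 in VO (SD, n = 3 each). The 17 hypoxia genes, chosen since Vegfa is a known target of HIF factors, gave 0 genes at an unadjusted p under 0.05 and a median of -0.04. In that list 1 of 17 genes had no overlap between groups, against 21.2% of all tested genes. This was Hk2, with VO wholly below sham, at 12.6, 18.4 and 22.4 FPKM against 25.5, 24.8 and 22.6. Ldha and Pgk1, the list genes of highest level, overlapped, with log2 fold changes of -0.28 and -0.34.

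Markers of other cells give the setting of these values. All 13 cardiomyocyte markers had lower means in VO, where 6503 of the 12627 tested genes had a log2 fold change below 0. Of the 13, 7 had an unadjusted p under 0.05, against 12.0% of all tested genes, and the median log2 fold change was -0.58. Those of smallest p were Mybpc3 (-0.58), Actc1 (-0.86), Tnnt2 (-0.59) and Tnnc1 (-0.75), genes of the contractile apparatus. All 6 tested leukocyte markers had higher means, where 6124 of the 12627 tested genes had a log2 fold change above 0. Of the 6, 1 had an unadjusted p under 0.05 (Cd68 of macrophages, 0.75), against 12.0% of all tested genes. The leukocyte median was 0.84. Without VO 1 that median was 0.28, and the cardiomyocyte median -0.38 with 3 genes at an unadjusted p under 0.05. Smooth muscle and pericyte markers were split, with 5 higher and 5 lower means and a median of -0.02. Rgs5, of pericytes, had a log2 fold change of 0.44 (limma's adjusted p = 0.404) and Acta2, of smooth muscle, -0.999 (limma's adjusted p = 0.373), each without overlap. Des, a muscle filament gene, was at -0.68. Myh11, also of smooth muscle, was at 0.01 and overlapped. Pdgfrb (0.24) and Notch3 (0.50) were also wholly higher in VO and Cnn1 (-1.10) wholly lower, while Cspg4, Kcnj8 and Abcc9 overlapped. Of these none had an unadjusted p under 0.05. Among the 10 tested genes 3 were wholly higher and 3 wholly lower, beside 8.25% and 12.9% of all tested genes. The direction of either cell type was not tested. Fibroblast markers had 3 of 10 genes at an unadjusted p under 0.05, beside 12.0% of all tested genes, with a median of 0.11. These 3 were higher (Col3a1 0.61, Col1a2 0.56 and Mfap5 0.35), and of the 10 genes 7 had higher and 3 lower means. Of the list genes of high level, Gsn had a log2 fold change of -0.83 and Dcn -0.03, and both overlapped between groups. Gsn was at 321 FPKM in VO 1 and at 1149 and 1042 in VO 2 and VO 3, beside 1111 to 1604 in sham. Without VO 1 the fibroblast count was 1 and the median 0.0064. The lymphatic, platelet and red cell lists gave 0 genes at an unadjusted p under 0.05 over 4, 5 and 5 tested genes, and the fat list 0 over 5. The summed FPKM of the 10 members was 313 to 317 in sham and 313 to 332 in VO, while the summed cardiomyocyte markers of VO lay below those of sham.

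**Figure D4:**
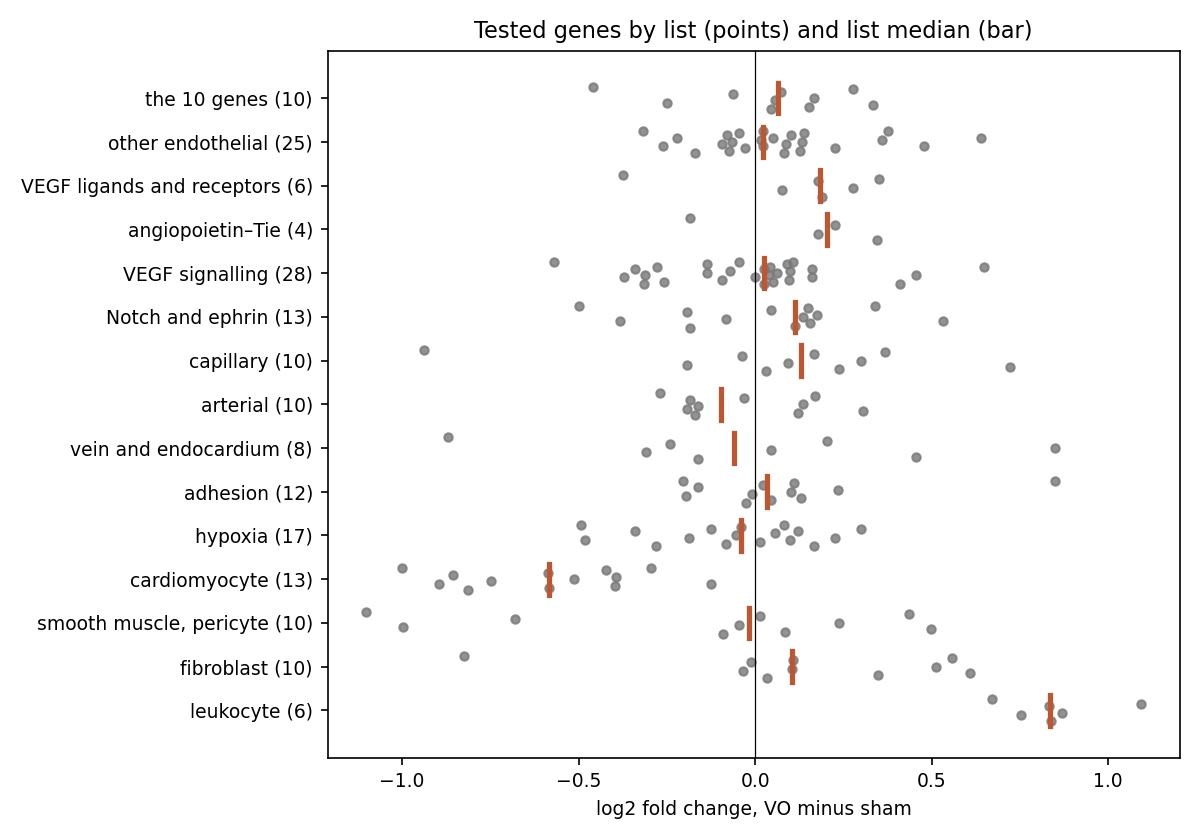
Log2 fold change of VO minus sham (horizontal axis) of each tested gene (points) in the 10 genes and 14 lists, with the list median as a bar and the number of tested genes in brackets. The medians of the endothelial lists lie between -0.10 and 0.20, beside -0.58 for cardiomyocyte and 0.84 for leukocyte markers, which became 0.28 without VO 1.

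Genes whose pattern over the 6 libraries was most like the mean z-score of the 9 endothelial members were Sike1, Gm49284, Idua, Zfp560 and Dynlt1c, with Pearson's r of 0.992, 0.986, 0.983, 0.979 and 0.977 over 6 libraries. That mean was -0.32, -0.13 and -0.03 in sham 1 to 3 and -0.02, 0.43 and 0.07 in VO 1 to 3. VO 2 had the highest value of all, and sham 3 and VO 1 were level. The mean joins members that ran in opposite directions, Cdh5 with Emcn for example. Reads of Dynlt1c can be shared with near-identical copies of that gene, which was at 0.732 FPKM in sham 1 and 1.71 in VO 2. The genes named were picked for the highest r among all tested genes. With 6 libraries, so high an r can come from that choice alone. Whether these genes follow the endothelium was not tested.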

How the data were processed

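RNA-seq of RAs at P21 was used from 3 sham and 3 VO libraries. The authors aligned paired-end reads with HISAT2 2.0.5, counted them with featureCounts 1.5.0-p3 and deposited FPKM values. The submitters' processing notes name GRCm38, and all 10 members have the coordinates of GENCODE M21 on that build. 1 incomplete line was left out. Each FPKM times gene length was a whole multiple (tolerance 0.01) of a step per library, which gave back the fragments.

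FPKM was scaled by the median of ratios and filtered to a mean of at least 1, and log2(FPKM + 0.1) was fitted with limma 3.58.1 in R 4.3.3 (trend of variance, no covariate). The test was checked on simulated data with the same dispersion for every gene. The changed genes in it had larger fold changes than any member, so the check does not describe the test at the members' fold changes. DESeq2, which the authors ran, was not used. Whether the counting used strand is not given in the sources used here, but no overlapping gene shared exon bases with a member. The named genes were all members, in each list genes at an unadjusted p under 0.05 (at most 4) and up to 3 of highest mean, and the 5 genes most like the members. Members and lists were chosen with earlier results of these data known. Vegfc, Vegfd, Pgf, Angpt2, Hk2, Gp1bb, Myh11, Nfatc1, Pdgfrb, Notch3, Cnn1, Cspg4, Kcnj8 and Abcc9 fall outside that rule. They were chosen after their values were seen.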

Additional observations from a re-analysis of the deposited data

How the results depend on the processing

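The adjusted p of the 10 genes ran from 0.245 (Plvap without VO 2) to 0.999 over 20 alternatives, so no member passed in any. In 8 of these the fold changes equal the main ones by construction (filters, deposited FPKM with all scaling factors at 1, variance options, block and covariate). Of the 120 values in the other 12, 113 kept their sign and 7 did not: Pecam1 became 0.077 with TPM, 0.090 with quantile normalization, 0.031 with fragment totals and ran from -0.16 to 0.0085 with a library left out, Flt1 from -0.032 to 0.21 and Tek from -0.030 to 0.093. The log2 ratio of Flt1 to Kdr ran from -0.18 to 0.069 with a library left out. The count of members at an unadjusted p under 0.05 was 3, and ran from 0 (without sham 1, sham 2 or VO 1) to 3 with a library left out. Over all alternatives the median of the members ran from 0.045 to 0.20. For the lists, 68 counts and 51 medians moved: cardiomyocyte genes at an unadjusted p under 0.05 ran from 2 (no filter) to 10, leukocyte genes from 0 to 6, hypoxia genes from 0 to 2 and other endothelial genes from 1 to 5. TPM, fragment totals and quantile normalization gave 2 members, Cdh5 and Tie1. With a replicate block 1 member (Plvap), 932 genes and 0 adjusted genes were left. Equal replicate numbers were not treated as pairing samples, since the correlations of sham and VO deviations were -0.108, 0.011 and -0.029. Presence of Xist as a covariate, added after the data were seen, left 1 member (Plvap) and 0 adjusted genes. The count of all genes past an adjusted p of 0.05 was 1, and 2 with pseudocount 1, 3 with a mean of 0.1 FPKM or without trend, 0 with quantiles or robust variance, and 0 with any library left out. Genes at an unadjusted p under 0.05 ran from 874 to 2001 with a library left out. Higher against lower genes were 491 and 1020, but 1085 and 486 with TPM and 942 and 631 with fragment totals. The cause of these moves was not tested. Counting error of the members was at most 3.45%.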
